A study of Mus musculus with 11 samples.

Results

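The oligoadenylate synthetase (Oas) family was followed by 6 genes, Oas1a, Oas1g, Oas2, Oas3, Oasl1 and Oasl2, taken as the rows of the count table whose Ensembl identifiers carry these symbols, out of 55487 genes. RNA had been sequenced in bulk from 11 samples of acute myeloid leukaemia (AML) of mice. All 11 carried Flt3-ITD, an activating internal duplication in the cytokine receptor gene Flt3, and NHD13, a NUP98-HOXD13 fusion transgene. In 5 of them both copies of Ifnar1 were disrupted (Ifnar1 -/-), and 6 kept a single functional copy (Ifnar1 +/-). Ifnar1 encodes a subunit of the type I interferon receptor. No age is given. Nothing in the labels ties a sample to a mouse of its own, so the p-values below measure the spread between samples, which may be technical. The samples are labelled AML, while the series' design text calls the cells HPCs.

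Library totals ran from 25583642 to 38728143 estimated counts. Ifnar1 itself had 36.3 to 133 CPM in Ifnar1 -/- and 39.3 to 84.5 CPM in Ifnar1 +/- AML, where CPM are counts scaled to a common library size with TMM factors. A count over a whole gene does not show a deleted part, so it checks no label. The 6 AML and progenitor markers Kit, Cd34, Flt3, Hoxa9, Meis1 and Ptprc each reached 1 CPM in at least 1 library of both genotypes. Their summed levels were 350 to 968 CPM in Ifnar1 -/- and 335 to 1526 CPM in Ifnar1 +/- AML. Fewer cells of a type and less RNA per cell cannot be told apart in bulk RNA.

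Oas enzymes bind double-stranded RNA, often of viral origin, and then link ATP into short chains of adenylate, the 2-5A. These chains act as a second messenger of the antiviral response. Oas genes are classical interferon-stimulated genes: signalling from the type I interferon receptor assembles ISGF3, a transcription factor complex that binds a DNA element known as the ISRE. In the mouse, Oasl2 keeps synthetase activity, whereas Oasl1 lacks it and is known for limiting the translation of Irf7 mRNA, which encodes a transcription factor that drives interferon production.

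All 6 genes lie on mouse chromosome 5. In GENCODE release M21 on GRCm38 the members Oas2, Oas3, Oas1g and Oas1a lie between 120730333 and 120907521, each on the minus strand. Oasl2 and Oasl1 run from 114896936 to 114937915 on the plus strand. The sources used here do not name the build behind the counts. The 120 bases before the transcription start of 5 members and of the paralogue Oas1c are shown because they hold or lack the letters of an ISRE core. They were taken from RefSeq promoters on GRCm38.p6, run 5′ to 3′ on the gene's strand, and carry in capitals each match, on either strand, to an ISRE core written as GAAA, any 2 bases and GAAA. For Oas2 no promoter is shown. The paralogues Oas1f and Oas1h were also searched and are not shown.
Oas1a (chr5:120907526-120907645, minus strand): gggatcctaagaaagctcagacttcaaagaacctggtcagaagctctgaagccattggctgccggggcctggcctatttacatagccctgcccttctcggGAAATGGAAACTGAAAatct
Oas1g (chr5:120887614-120887733, minus strand): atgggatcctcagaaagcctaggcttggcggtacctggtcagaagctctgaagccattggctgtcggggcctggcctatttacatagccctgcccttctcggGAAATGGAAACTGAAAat
Oas3 (chr5:120777660-120777779, minus strand): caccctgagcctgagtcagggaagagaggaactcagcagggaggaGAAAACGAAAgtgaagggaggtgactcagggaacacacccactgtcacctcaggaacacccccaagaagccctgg
Oas1c (chr5:120812515-120812634, minus strand): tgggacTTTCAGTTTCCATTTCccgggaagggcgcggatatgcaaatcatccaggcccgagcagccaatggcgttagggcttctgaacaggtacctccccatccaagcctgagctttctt
Oasl1 (chr5:114923120-114923239, plus strand): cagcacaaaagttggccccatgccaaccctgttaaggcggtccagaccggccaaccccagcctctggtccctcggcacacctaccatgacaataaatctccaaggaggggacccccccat
Oasl2 (chr5:114896814-114896933, plus strand): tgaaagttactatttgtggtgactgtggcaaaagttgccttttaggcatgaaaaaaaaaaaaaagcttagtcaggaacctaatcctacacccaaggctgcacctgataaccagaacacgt

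Oas1a and Oas1g each held 2 overlapping matches. They began at positions -20 and -14 in Oas1a and at -18 and -12 in Oas1g, counted back from the start. Compared without gaps at a shift of 2 bases, 108 of 118 promoter bases (91.5%) were identical between this pair. Oas3 held 1 match, at -75. Oas1c, a paralogue outside the 6, held 2 overlapping matches on the opposite strand, at -114 and -108. Oasl1, Oasl2 and the paralogues Oas1f and Oas1h held none, also when the window was widened to 250 bases before and 50 after the start. Among 32851 RefSeq promoters, 1.22% held a match in the 120 bases before the start and 3.44% in the wider window. A second pattern, TTCNNNGAA, reads the same on both strands and is the core of the interferon-responsive GAS element. It occurred in the wider window of 1 of the 6 genes shown (Oas1a, at -98), in neither Oas1f nor Oas1h, and in 8.3% of all. A match of letters is a description and does not show binding, and the absence of these letters in a window says nothing about a factor.

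Transcripts of the 6 members were scarce in these leukaemias. Values below are listed in the order of the library numbers, 1 to 5 for Ifnar1 -/- and 1 to 6 for Ifnar1 +/- AML. With all 6 members added, Ifnar1 -/- AML had 3.86, 2.99, 1.97, 4.83 and 19.3 CPM, against 10.7, 39.5, 32.7, 17.8, 12.3 and 22.9 CPM in Ifnar1 +/- AML. In Ifnar1 -/- AML, 4 libraries stayed below every Ifnar1 +/- library, and library 5 lay among the Ifnar1 +/- values. The genotype of library 5 is taken from its label, which the counts cannot check.

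Per kilobase of exon, Oas1a had the highest mean in both genotypes. In Ifnar1 -/- AML the order of mean levels in CPM per kilobase was Oas1a at 1.25 ± 2.36 (SD, n = 5), Oas3 at 0.300 ± 0.177, Oasl2 at 0.199 ± 0.156, Oasl1 at 0.184 ± 0.303, Oas1g at 0.0720 ± 0.111 and Oas2 at 0.0420 ± 0.0660. In Ifnar1 +/- AML it was Oas1a at 2.54 ± 2.48 (SD, n = 6), Oasl1 at 2.25 ± 2.17, Oas3 at 0.910 ± 0.809, Oasl2 at 0.636 ± 0.495, Oas2 at 0.301 ± 0.226 and Oas1g at 0.0667 ± 0.101. Neighbours in either order differed by less than the larger of their SDs, other than Oas2 and Oas1g in Ifnar1 +/- AML. The mean of Oas1a in Ifnar1 -/- AML came from library 5, and without that library it was 0.198 ± 0.112 CPM per kilobase (SD, n = 4), against 0.276 ± 0.195 for Oas3, a difference within the spread.

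**Figure D1:**
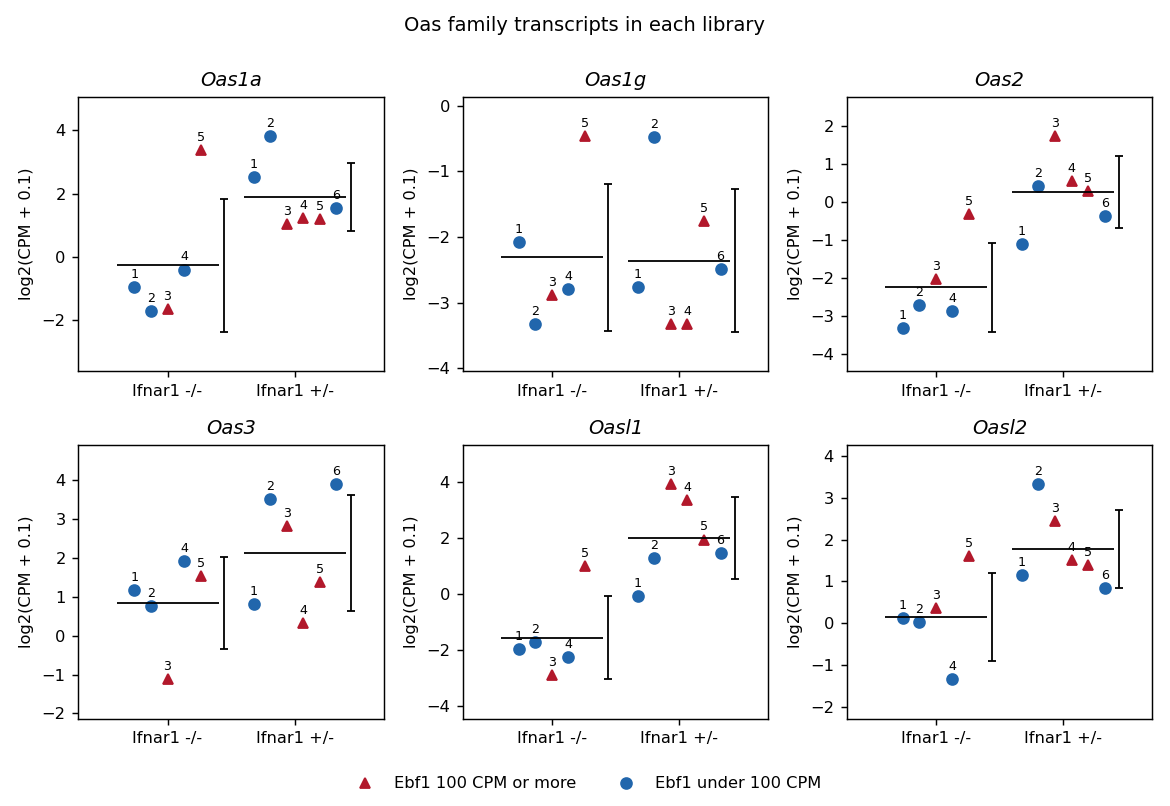
Level of each Oas family member as log2(CPM + 0.1) in every library, Ifnar1 -/- left and Ifnar1 +/- right in each panel. Numbers are library numbers, horizontal lines means of these log2 values, vertical bars their SD, and triangles mark libraries with at least 100 CPM of Ebf1. Ifnar1 -/- library 5 stands above the other 4 Ifnar1 -/- libraries for every member other than Oas3.

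Oas1a, a 2-5A synthetase and a mouse counterpart of human OAS1, was low in 4 of 5 Ifnar1 -/- libraries. The Ifnar1 -/- libraries had 0.418, 0.206, 0.215, 0.656 and 10.3 CPM, against 5.63, 13.9, 1.94, 2.26, 2.17 and 2.78 CPM in the Ifnar1 +/- libraries. The first 4 lay below every Ifnar1 +/- library, while library 5 was the second highest of all 11. The fitted log2 fold change of Ifnar1 -/- over Ifnar1 +/- came to -1.01 (SE 1.10, edgeR adjusted p = 0.9998), and without Ifnar1 -/- library 5 it was -3.64 (SE 0.80), with an edgeR adjusted p of 0.979.

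Oas1g, a close copy of Oas1a in the same cluster, was counted at no more than 19.5 estimated reads in any library and did not pass the filter on low counts. Its level was 0.137, 0, 0.0358, 0.0446 and 0.624 CPM in the Ifnar1 -/- libraries, and 0.0471, 0.616, 0, 0, 0.195 and 0.0783 CPM in the Ifnar1 +/- libraries. The groups overlapped, and its 2 highest libraries were the 2 with the highest Oas1a. With 3 reads taken as the limit of a count of 0, the limit was 0.155 CPM in Ifnar1 -/- library 2. It was 0.108 and 0.109 CPM in Ifnar1 +/- libraries 3 and 4. With no filter its fitted log2 difference was 0.16 (SE 1.28), with an edgeR adjusted p of 0.983.

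Counts of Oas1a and Oas1g could not be fully separated. In 7 of 11 libraries both held fractional counts, and in all 11 their sum was whole within 0.01 reads, for example 13.55 and 4.45 reads in Ifnar1 -/- library 1 with a sum of 18. Of the 50-base stretches in GENCODE M21 transcripts of Oas1a, 57.6% also occurred in transcripts of Oas1g, and 45.2% of those of Oas1g in Oas1a. For Oas2 and Oasl1 that share with any other gene was 0.0%, for Oas3 0.31% and for Oasl2 0.138%. Summing Oas1a and Oas1g into 1 feature gave a fitted log2 difference of -0.96 (SE 1.09, edgeR adjusted p = 0.9998).

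Oas2, a larger 2-5A synthetase, was nearly absent from 4 Ifnar1 -/- libraries. The Ifnar1 -/- libraries had 0, 0.0516, 0.143, 0.0369 and 0.704 CPM, from 0, 1, 4, 1 and 22 reads, against 0.363, 1.24, 3.24, 1.38, 1.13 and 0.682 CPM in the Ifnar1 +/- libraries, from 9, 37, 90, 38, 47 and 21 reads. Only library 5 of the Ifnar1 -/- libraries reached the Ifnar1 +/- range. For the 0 reads of library 1 the same limit of 3 reads was 0.0927 CPM, for counting error only. The fitted log2 fold change of Oas2 was -2.79 (SE 1.02, unadjusted p = 0.0193, edgeR adjusted p = 0.9998). Oas2 passed the filter mainly through Ifnar1 +/- libraries, and without Ifnar1 -/- library 5 its log2 fold change was -4.45.

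Oas3, the largest of the synthetases, overlapped between the genotypes. The Ifnar1 -/- libraries had 2.16, 1.60, 0.358, 3.69 and 2.78 CPM, against 1.65, 11.4, 6.95, 1.16, 2.51 and 15.0 CPM in the Ifnar1 +/- libraries. The 3 highest values were Ifnar1 +/- libraries 6, 2 and 3, and Ifnar1 +/- libraries 1, 4 and 5 lay within the Ifnar1 -/- range. Its fitted log2 fold change was -1.60 (SE 0.78, unadjusted p = 0.0647, edgeR adjusted p = 0.9998), and -0.56 (SE 0.74) in limma voom. Ifnar1 -/- library 5 did not stand apart for Oas3, and without it the log2 fold change was -1.72.

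Oasl1, the member without synthetase activity, had the lowest fitted fold change of the 5 tested members. The Ifnar1 -/- libraries had 0.154, 0.206, 0.0358, 0.111 and 1.89 CPM, against 0.846, 2.37, 15.3, 10.3, 3.77 and 2.66 CPM in the Ifnar1 +/- libraries. Ifnar1 -/- library 5 lay above Ifnar1 +/- library 1 and below the other 5, and the other Ifnar1 -/- libraries lay below all 6. Its fitted log2 fold change was -3.59 (SE 1.14, unadjusted p = 0.00912, edgeR adjusted p = 0.9998) and -5.51 without Ifnar1 -/- library 5. Like Oas2, Oasl1 passed the filter mainly through Ifnar1 +/- libraries. The antisense gene Gm13822 overlaps Oasl1 and had at most 10 reads in any library, and strand use in the counting is not given in the sources used here.

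Oasl2, the family member that joins ubiquitin-like domains to synthetase activity, had 0.988, 0.929, 1.18, 0.295 and 2.94 CPM in the Ifnar1 -/- libraries, against 2.14, 9.96, 5.29, 2.73, 2.53 and 1.69 CPM in the Ifnar1 +/- libraries. Again 4 Ifnar1 -/- libraries lay below every Ifnar1 +/- library and library 5 lay inside their range. Its fitted log2 fold change was -1.67 (SE 0.65, unadjusted p = 0.0267, edgeR adjusted p = 0.9998), and -2.25 without Ifnar1 -/- library 5.

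None of the 5 tested members passed edgeR's quasi-likelihood test after adjustment over 14521 genes, and neither did any other gene (0.0% lower and 0.0% higher). At an unadjusted p under 0.05, 112 genes were lower (0.771% of those tested) and 177 higher, and among them 3 of the 5 tested members, Oas2, Oasl1 and Oasl2, were lower. Of these, Oas2 and Oasl1 passed the filter on low counts mainly through Ifnar1 +/- libraries. For them the comparison with all tested genes is therefore not independent of the filter. DESeq2 called 3 genes (0.0207% of those tested), none of them a member, and limma voom called 0. The median log2 fold change of the 5 tested members was -1.67, against -0.01 over all tested genes. All 5 tested members had fitted values below 0, as 51.7% of tested genes did. A missed threshold does not show that levels were equal.

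No member separated the genotypes completely, as 11 genes did (0.0758% of those tested, all Ifnar1 -/- libraries below all Ifnar1 +/- libraries). Leaving out Ifnar1 -/- library 5, which was singled out after its values were seen, Oas1a, Oas2, Oasl1 and Oasl2 lay below every Ifnar1 +/- library in the 4 other Ifnar1 -/- libraries, as 42 genes did (0.289% of those tested). For Oas2 and Oasl1 this comparison is likewise not independent of the filter. No member had an adjusted p under 0.05 in the fit without library 5 either (edgeR adjusted p = 0.979 for all 5 tested members). For Oas1a, library 5 was 15.7 times the highest of the other Ifnar1 -/- libraries. The ratio was 9.14 for Oasl1, 4.91 for Oas2, 4.54 for Oas1g, 2.49 for Oasl2 and 0.755 for Oas3. Over all tested genes, library 5 was the highest Ifnar1 -/- library for 15.0%, and over the 5 tested members for 4.

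**Figure D2:**
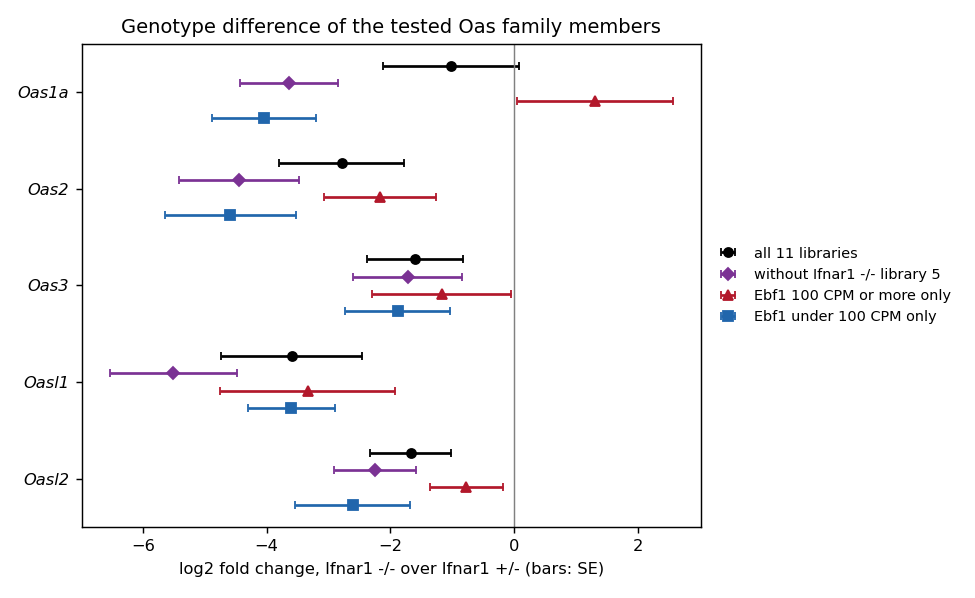
Log2 fold change of Ifnar1 -/- over Ifnar1 +/- with its SE for the 5 tested members, over all 11 libraries, without Ifnar1 -/- library 5, and within libraries with at least or under 100 CPM of Ebf1. All points lie below 0 other than Oas1a in the libraries with much Ebf1, at 1.31.

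The AMLs also differed in Ebf1, a transcription factor gene that commits cells to the B lineage. Ebf1 had 531 to 745 CPM in 5 libraries (Ifnar1 -/- libraries 3 and 5, Ifnar1 +/- libraries 3, 4 and 5) and 0.0309 to 8.72 CPM in the other 6. These classes come from the data and not from the labels, and no test was made between them. Across them, ranges of the members overlapped: Oas1a had 0.215 to 10.3 CPM with much Ebf1 and 0.206 to 13.9 CPM with little, and Oasl2 had 1.18 to 5.29 and 0.295 to 9.96 CPM. Oasl1 had 0.0358 to 15.3 CPM with much Ebf1 and 0.111 to 2.66 CPM with little, and Oas2 0.143 to 3.24 and 0 to 1.24 CPM.

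Which member led differed between Ifnar1 +/- libraries. Per kilobase of exon, Oasl1 was the highest member in the 3 Ifnar1 +/- libraries with much Ebf1, at 5.87, 3.95 and 1.44 CPM per kilobase in libraries 3, 4 and 5. There it was 5.69, 3.30 and 1.25 times Oas1a. In the 3 Ifnar1 +/- libraries with little Ebf1 it was 0.109, 0.123 and 0.692 times Oas1a in libraries 1, 2 and 6, where Oas1a led in libraries 1 and 2 and Oas3 in library 6. Among Ifnar1 -/- libraries, Oasl1 was 0.120 and 0.132 times Oas1a in libraries 3 and 5, which had much Ebf1, and 0.267, 0.723 and 0.122 times Oas1a in libraries 1, 2 and 4. The order seen in Ifnar1 +/- AML with much Ebf1 was therefore not present in Ifnar1 -/- libraries 3 and 5, although library 3 rested on 1 read of Oasl1 and 6 of Oas1a. These ratios were chosen after their values were seen and were not tested.

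**Figure D3:**
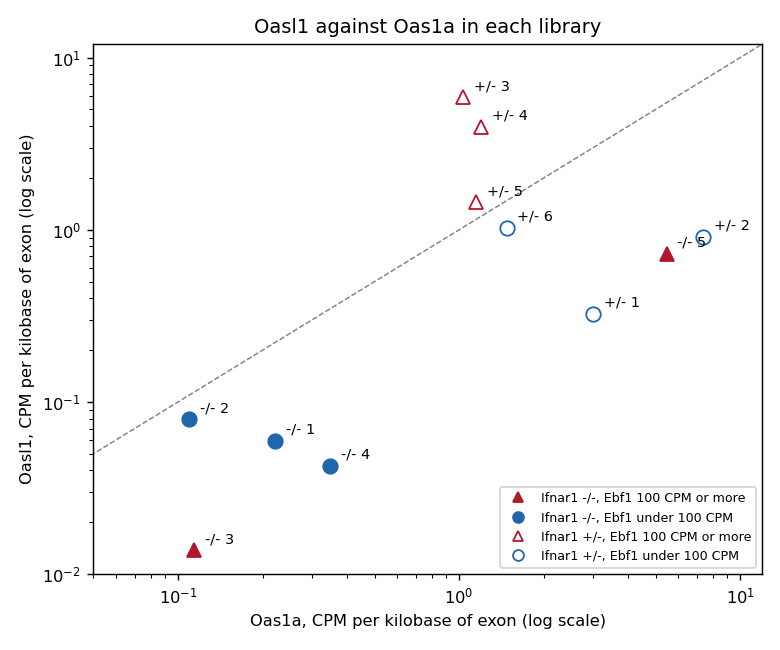
Oasl1 against Oas1a in CPM per kilobase of exon, both axes logarithmic, one point per library. Filled points are Ifnar1 -/- and open points Ifnar1 +/-, triangles have at least 100 CPM of Ebf1, and the dashed line marks equal levels. Only Ifnar1 +/- libraries 3, 4 and 5 lie above the line.

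Within the 6 libraries with little Ebf1, Oas1a, Oas2, Oasl1 and Oasl2 lay lower in all 3 Ifnar1 -/- than in all 3 Ifnar1 +/- libraries, as 3.91% of tested genes did. Their log2 fold changes there were -4.04 (SE 0.85), -4.59 (SE 1.06), -3.60 (SE 0.70) and -2.61 (SE 0.93). Each had an unadjusted p under 0.05, as 1.72% of genes did on the lower side, and none passed edgeR's adjustment (edgeR adjusted p = 1.0). Oas2 and Oasl1 passed the filter on low counts mainly through Ifnar1 +/- libraries. For them these comparisons with all tested genes are not independent of the filter. Oas3 had a log2 fold change of -1.88 (SE 0.85), with Ifnar1 -/- library 4 at 3.69 CPM above Ifnar1 +/- library 1 at 1.65 CPM.

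Within the 5 libraries with much Ebf1, Oas2 and Oasl1 lay lower in both Ifnar1 -/- than in all 3 Ifnar1 +/- libraries, as 8.79% of tested genes did. Both passed the filter mainly through Ifnar1 +/- libraries, so this comparison is not independent of the filter either. The log2 fold changes were -2.16 (SE 0.90) for Oas2, -3.34 (SE 1.42) for Oasl1, -1.17 (SE 1.12) for Oas3 and -0.77 (SE 0.60) for Oasl2, and 1.31 (SE 1.26) for Oas1a. No member had an unadjusted p under 0.05 (edgeR adjusted p = 0.999), while 1.4% of genes did on the lower side. Oas1a split by library: Ifnar1 -/- library 3 had 0.215 CPM and library 5 had 10.3 CPM, against 1.94 to 2.26 CPM in the 3 Ifnar1 +/- libraries.

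No difference between these classes in the genotype effect passed the test. The interaction term was 5.38 for Oas1a (log2, SE 1.63, unadjusted p = 0.00873, edgeR adjusted p = 0.9999), and 2.47 for Oas2, 1.87 for Oasl2, 0.74 for Oas3 and 0.29 for Oasl1. Over all genes, 2.86% had an unadjusted p under 0.05 for this term and 0.0% passed. Without Ifnar1 -/- library 5 the term of Oas1a was 0.80, that of Oas3 -1.38 and that of Oasl1 -4.31, but library 3, with 1 read of Oasl1, is then the only Ifnar1 -/- library with much Ebf1. That fit assumes that this 1 library varies like the other groups.

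Other cell types were read from marker lists. Siglech, a marker of plasmacytoid dendritic cells, had 0 reads in all 11 libraries. The 6 plasmacytoid markers, of which Bst2 is itself interferon-stimulated, summed to 164 to 799 CPM in Ifnar1 -/- and 179 to 485 CPM in Ifnar1 +/- AML. Among them, Irf8 had 155 to 263 CPM in the libraries with much Ebf1 and 0.664 to 7.37 CPM in those with little. It had 210 CPM in Ifnar1 -/- library 5, so the sum is not a reading of plasmacytoid cells alone. Of 9 T and NK cell markers 6 reached 1 CPM in at least 1 Ifnar1 -/- library, with sums of 22.1 to 1322 CPM. In at least 1 Ifnar1 +/- library 5 did, with sums of 151 to 6294 CPM. The 6 monocyte and macrophage markers summed to 61.5 to 3842 CPM in Ifnar1 -/- and 13.2 to 482 CPM in Ifnar1 +/- AML. In Ifnar1 -/- library 5 these sums were 463, 291 and 62.7 CPM in the same order. The 6 early B lineage markers, Ebf1 among them, summed to 0.813 to 7167 CPM in Ifnar1 -/- AML, highest in library 5, and to 2.12 to 8036 CPM in Ifnar1 +/- AML. Neutrophil markers summed to 2.06 to 26203 and 188 to 4571 CPM, eosinophil markers to 1.47 to 58700 and 26.5 to 1457 CPM, and erythroid markers to 1228 to 7554 and 560 to 86970 CPM, Ifnar1 -/- before Ifnar1 +/-. The part of these cells in the Oas levels was not tested.

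Genes listed for the 2-5A and double-stranded RNA pathway did not pass the test. The list also held Cgas and Tmem173, of DNA sensing. Of its 13 genes 12 were tested, 7 with lower and 5 with higher fitted values, a median log2 fold change of -0.18 and 0 called. The smallest unadjusted p in the list belonged to Abce1, a ribosome recycling factor gene, at -0.53 (SE 0.27), Eif2ak2, which encodes the double-stranded RNA-activated kinase PKR, at -0.52 (SE 0.29), and Adar, an RNA-editing enzyme gene, at -0.29 (SE 0.20). Pde12, which encodes a phosphodiesterase that degrades 2-5A, had 26.9 to 48.0 CPM in Ifnar1 -/- and 24.8 to 48.8 CPM in Ifnar1 +/- AML.

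Genes of interferon signalling did not pass either. This list held the chain from the receptor to ISGF3 and also Irf7, Irf3, Irf1, Irf8, Usp18 and Socs1. All 13 were tested, 7 with lower and 6 with higher fitted values, a median log2 fold change of -0.26 and 0 called. The smallest unadjusted p belonged to Tyk2, the gene of a receptor-bound kinase, at 0.62 (SE 0.28), Irf7 at -0.90 (SE 0.58) and Irf1 at 0.33 (SE 0.22). Irf9 had 5.19 to 42.5 CPM in Ifnar1 -/- and 18.6 to 49.8 CPM in Ifnar1 +/- AML. Irf7, whose translation Oasl1 limits, had 4.89 to 21.9 CPM in Ifnar1 -/- and 5.21 to 35.3 CPM in Ifnar1 +/- AML.

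Other interferon-stimulated genes also had mostly lower fitted values. Of 16, 13 were tested, 12 with lower and 1 with higher fitted values (51.7% of all tested genes were lower), a median log2 fold change of -1.29 and 0 called. At an unadjusted p under 0.05, 4 were lower, as 0.771% of all tested genes were. These were the antiviral genes Ifit1 at -3.17 (SE 0.83), Rtp4 at -3.13 (SE 0.95) and Rsad2 at -2.25 (SE 0.93) and the ubiquitin-like modifier gene Isg15 at -2.04 (SE 0.91). Leaving out Ifnar1 -/- library 5 moved Rtp4 to -4.50, Ifit1 to -3.41, Rsad2 to -2.24 and Isg15 to -2.08. Within the libraries with much Ebf1 the values were -2.89 for Rtp4, -1.77 for Ifit1, -0.46 for Rsad2 and 0.13 for Isg15, and within those with little Ebf1 they were -3.07, -3.78, -2.77 and -2.62 for the same genes. The list was composed with earlier results of these data known.

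**Figure D4:**
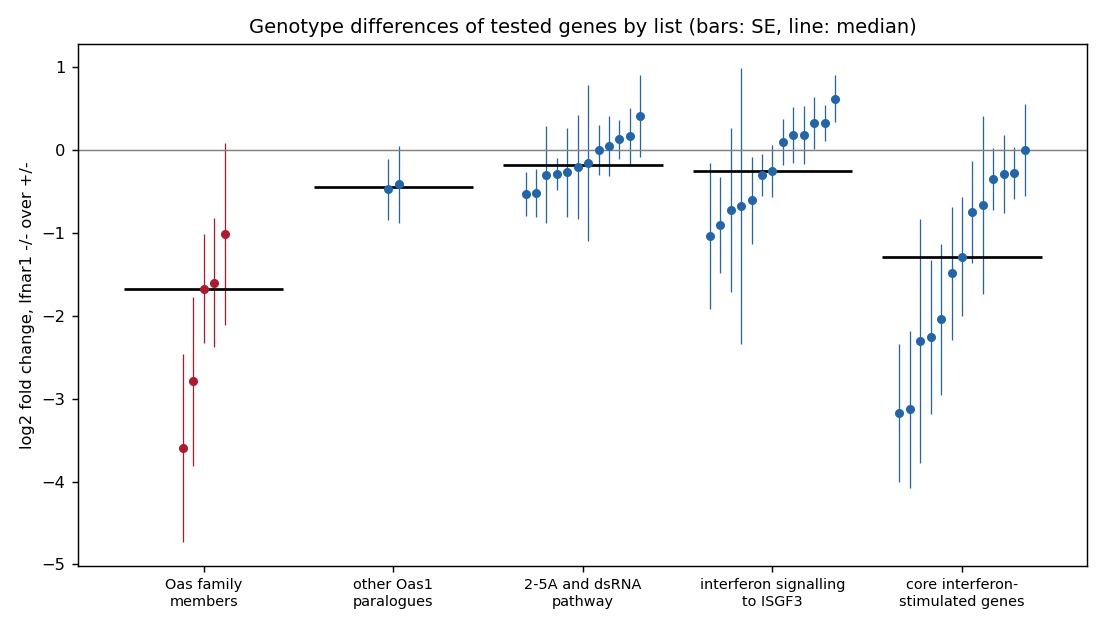
Log2 fold change of Ifnar1 -/- over Ifnar1 +/- with its SE for each tested gene of the Oas family and of 4 other lists, with horizontal lines at the medians. The medians are -1.67 for the Oas members, -0.44 for other Oas1 paralogues, -0.18 and -0.26 for the 2 signalling lists and -1.29 for other interferon-stimulated genes.

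Oas1c had 1.29 to 9.49 CPM in Ifnar1 -/- and 4.78 to 14.4 CPM in Ifnar1 +/- AML, and a fitted difference of -0.41 on the log2 scale (SE 0.47). Oas1b, known in the mouse for resistance to flaviviruses, had 0.568 to 1.28 and 0.568 to 1.67 CPM in the same order, and a fitted log2 difference of -0.47 (SE 0.37). Neither passed the test. Oas1d and Oas1h had 0 reads in every library, Oas1e at most 0.0364 CPM and Oas1f at most 0.390 CPM.

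Genes next to the Oas clusters had fitted values on both sides of 0. Of the 20 nearest protein-coding neighbours, 5 on each side of both clusters in the RefSeq table of GRCm38.p6, 14 were tested. Their log2 fold changes ran from -0.60 to 0.64 with a median of -0.10, 9 lower and 5 higher, and 0 were called. Ptpn11, a phosphatase gene beside the Oas1 to Oas3 cluster that was chosen after its values were seen, had a fitted log2 change of -0.12 (SE 0.15).

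The members tracked each other unevenly across the 11 libraries. Spearman's correlation of log2 CPM, a description over libraries of both genotypes and both Ebf1 classes, was 0.90 between Oas2 and Oasl2, 0.89 between Oas2 and Oasl1 and 0.74 between Oasl1 and Oasl2. Oas1a had 0.73 with Oasl2, 0.55 with Oas2 and 0.47 with Oasl1. Oas3 had 0.27 to 0.50 with the other 4 tested members.

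The genes whose pattern was most like the tested members, by the mean of these correlations, were Efna5 (0.73), Rtp4 (0.71), Tmtc3 (0.71), Lmln (0.70), Inppl1 (0.69) and Chst11 (0.69). In the 6 libraries with little Ebf1 their means were 0.75, 0.74, 0.81, 0.81, 0.81 and 0.74. Efna5, which encodes the cell-surface ligand ephrin-A5, had 0 to 2.24 CPM in Ifnar1 -/- and 1.72 to 61.9 CPM in Ifnar1 +/- AML. Inppl1, the gene of a lipid phosphatase, had 0.0516 to 8.82 CPM in Ifnar1 -/- and 3.10 to 26.4 CPM in Ifnar1 +/- AML. None of the 6 passed edgeR's test between genotypes (edgeR adjusted p = 0.9998 for each).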

How the data were processed

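Bulk RNA was sequenced from 5 Ifnar1 -/- and 6 Ifnar1 +/- AML samples. The deposited values are estimated counts per Ensembl gene, unscaled, of which 10.0% to 11.3% per library were not whole. Per the submitters' processing notes, bcl2fastq and DRAGEN were used. For build and annotation, nothing is given in the sources used here. Identical copies of repeated identifiers (287 of 55774 rows) were dropped. Symbols came from a table that matched 55141 identifiers, exon lengths from GENCODE M21.

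After rounding, the estimated counts went into edgeR 4.0.16 (R 4.3.3): filterByExpr by genotype left 14521 genes, with TMM factors, glmQLFit with robust=TRUE, glmQLFTest, two-sided, Benjamini-Hochberg adjustment over all tested genes and a threshold of 0.05. Each SE is the size of the log2 fold change over the root of F. CPM rest on the totals of tested genes times TMM factors, and correlations used log2 CPM with a prior count of 2. The interaction model held genotype, Ebf1 class (100 CPM or more) and their product. The edgeR step was tested on simulated data with 200 changed genes. At the estimated dispersion, the step found 4.62% of the genes set to differ 2-fold. Among genes set to differ 4-fold this share was 25.4%, and it reached 48.4% where the set difference was 8-fold. At a dispersion fixed at 0.05 these shares were 85.1%, 100.0% and 100.0%. Most simulated differences were thus missed at the estimated dispersion, so the absence of passing genes does not exclude differences of these sizes.

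Named genes are the 6 members, Ifnar1, Ebf1, up to 4 genes per list with the smallest p (some are not reported here) and the 6 genes most like the members, besides those said to be chosen otherwise and pathway genes named for their role. Members and lists were chosen with earlier results of these data known. Alternatives were DESeq2 1.42.0, limma 3.58.1 voom, other scalings and filters, robust=FALSE, each library left out, a replicate block, an Ebf1 covariate, each Ebf1 class alone and Oas1a with Oas1g summed.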

Additional observations from a re-analysis of the deposited data

Results flagged for a closer look

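Within a genotype, a library was marked where its gap to the nearest other library exceeded the 95% critical value of Dixon's ratio. Of 12 member and genotype combinations 7 were marked, and the members are not independent. Chance marks about 1 in 20 where values are normally distributed, which low CPM need not be. The share that this rule marks over all tested genes was not computed, so 7 of 12 is not shown to exceed it. Ifnar1 -/- library 5 stood above the other Ifnar1 -/- libraries with 10.3 CPM of Oas1a (next 0.656), 0.624 CPM of Oas1g (next 0.137), 0.704 CPM of Oas2 (next 0.143) and 1.89 CPM of Oasl1 (next 0.206). Ifnar1 +/- library 2 stood above the other Ifnar1 +/- libraries with 13.9 CPM of Oas1a (next 5.63) and 0.616 CPM of Oas1g (next 0.195). Ifnar1 +/- library 3 did so with 3.24 CPM of Oas2 (next 1.38). Oas1a and Oas1g share reads, so their marks are not separate.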

How the results depend on the processing

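The count of genes passing between genotypes was 0 in edgeR under every alternative run, with each library left out in turn (0 to 0), and in limma voom, and 3 in DESeq2. The interaction was refitted with RLE factors and with each library left out, and its count was 0 in these fits (0 to 0). No member passed under any alternative, with adjusted p from 0.381 to 1.0. The log2 fold changes of Oas2, Oas3, Oasl1 and Oasl2 kept their sign in the alternatives that tested them (22 for Oas2, which a filter of 1 CPM in 5 libraries removed, and 23 for each of the others), and that of Oas1a in 23 of 24: it was 1.31 in the libraries with at least 100 CPM of Ebf1. With each library left out, the log2 fold change ran from -3.64 to -0.32 for Oas1a, -4.45 to -2.31 for Oas2, -1.90 to -1.15 for Oas3, -5.51 to -3.03 for Oasl1 and -2.25 to -1.17 for Oasl2. The lowest value of Oas1a, Oas2, Oasl1 and Oasl2 came without Ifnar1 -/- library 5, and the highest of Oas1a (-0.32) without Ifnar1 +/- library 2. Interaction terms ran from -1.38 to 1.68 for Oas3 and from -4.31 to 1.30 for Oasl1, with the sign turned without Ifnar1 -/- library 5 (both genes), which leaves 1 Ifnar1 -/- library, number 3, with much Ebf1 and assumes that it varies like the other groups, and, for Oasl1, without Ifnar1 +/- library 5 (-0.10). The cause was not tested. With log2 Ebf1 as a covariate the 5 members had log2 fold changes of -3.22 to -1.62.

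Whether replicate numbers pair the samples was not settled. Deviations from the genotype means of same-numbered libraries correlated at 0.406, 0.148, 0.584, -0.547 and 0.518. Of 5 Ifnar1 -/- libraries, 0 correlated best with their own number. The libraries numbered 4, at -0.547, differ in Ebf1 class, while the remaining same-numbered libraries share theirs. These correlations therefore cannot tell whether the numbers pair samples. With the replicate number as a block (libraries 1 to 5), 0 genes passed and the log2 fold changes were -2.69 for Oas1a, -3.88 for Oas2, -0.83 for Oas3, -4.11 for Oasl1 and -1.95 for Oasl2.

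Depth limits Oas1g and, in Ifnar1 -/- AML, Oas2 and Oasl1, which had 0 to 5 reads in 4 of 5 libraries.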

Other observations

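Ifnar1 -/- library 5 did not have high values of every interferon-linked transcript. Of the 13 tested genes among the other interferon-stimulated genes, 8 were higher in it than in the other Ifnar1 -/- libraries, where this held for 15.0% of all tested genes. Xaf1, a pro-apoptotic gene, had 10.2 CPM in library 5, against 0.206 to 3.17 CPM in the other Ifnar1 -/- and 3.12 to 21.7 CPM in the Ifnar1 +/- libraries. Ifi27l2a had 15.8 CPM, against 0.258 to 5.55 and 0.242 to 49.4 CPM in the same order. For the other 5 it was not so: Ifit1 had 0.704 CPM, against 0.0813 to 0.774 and 0.690 to 8.22 CPM, and Isg15 had 8.41 CPM, against 1.68 to 12.6 and 3.96 to 68.7 CPM. Irf7 was at its lowest of all 11 libraries in library 5, at 4.89 CPM. Library 5 had much Ebf1, as only library 3 of the other Ifnar1 -/- libraries did. In the Ifnar1 +/- libraries with much Ebf1, Xaf1 had 10.7 to 21.7 and Ifi27l2a 29.6 to 49.4 CPM, above library 5. Ifit1 had 0.690 to 2.38 CPM in them, a range that held library 5, and Isg15 had 3.96 to 5.55 CPM, below library 5. Library 5 and the genes named here were chosen after their values were seen, and nothing was tested.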
